A study of Mus musculus with 2 samples.

Results

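Brain-enriched microRNAs (miRNAs) were examined in serum exosomes of mice bearing Lewis lung carcinoma (LLC) tumors. The members were mmu-miR-124-3p, mmu-miR-124-5p, mmu-miR-9-5p, mmu-miR-9-3p, mmu-miR-128-3p, mmu-miR-129-5p, mmu-miR-132-3p and mmu-miR-138-5p (the prefix for mouse is left out below), and they made up 8 of the 1881 mouse miRNAs on the array. All array rows that named one of them as a miRNA and not as a control were used. They were chosen by the detection of miR-124-3p on the MSC+LLC array and not on the LLC array, so the values of miR-124-3p on these arrays are a description and carry no test. The question was whether the other 7 members followed it. Of these 7, 0 were detected on the MSC+LLC array only, as were 0.957% of all 1881 miRNAs, while 3 were detected on both arrays (12.8% of all) and 4 on neither (72.4% of all). With so low a share over the whole array, nothing particular to the members is read from the 0.

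MiRNAs are short RNAs cut from hairpin precursors, and each arm of a hairpin (5p and 3p) can give a mature product that guides repression of mRNAs matching its seed. miR-124 is the best known neuronal miRNA and represses many non-neuronal transcripts in neurons. miR-9 acts in neural progenitors and neurogenesis, miR-128 is abundant in neurons, miR-132 is induced by neuronal activity together with its neighbor miR-212, and miR-129 and miR-138 act at synapses and dendrites. Outside the nervous system several of them are also found in blood and in other tissues.

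In the LLC group, 1000000 luciferase-expressing LLC cells, a mouse lung cancer line, were injected subcutaneously. In the MSC+LLC group, the same cells were injected together with murine bone marrow-derived mesenchymal stem cells (BMSCs), and exosomes were isolated from serum in both groups when the mean tumor volume reached 200 mm3. The exosomes came from serum according to the sample titles and from plasma according to the study's Results, and the source fields name the injected cells. The mice were 6-week-old C57BL/6 females, and the number of mice behind each array was not given in the labels. Each group had 1 array with 1 color (Cy3), both arrays lay on 1 slide, and array position and group cannot be told apart. No test between the groups was possible, every SD below is over spots within an array, and the number of arrays limits the precision.

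The MSC+LLC array was the dimmer one. Over the probes that both arrays detected, the 75th percentile was 2883 intensity units for LLC but 250.3 for MSC+LLC, and each array was divided by its own percentile unless stated. The spike-in controls differed far less between the arrays. Scaling by them gave a log2 bound of 3.08 for miR-124-3p, against 2.44 without scaling and 5.96 with this percentile. Detection of a probe required over 50% of its kept spots to lie well above background. The lowest detected probe was at 20.9 units for LLC and at 18.8 for MSC+LLC. All 5 miRNAs listed from blood and liver (miR-451a, miR-486a-5p, miR-16-5p, miR-223-3p and miR-122-5p) were detected on both arrays, as were 12.8% of all miRNAs. Of 5 mesenchymal stromal miRNAs, the LLC array detected 4 (26.7% of all miRNAs) and the MSC+LLC array 3 (13.7% of all). The count thus fell along with that over the whole array, and no stromal trait is read from it. miR-145a-5p was detected on neither (72.4% of all).

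The mature sequences are shown from RefSeq (GRCm38.p6), which held 6 of the 8 members and 1608 of the 1881 array miRNAs. The members without a sequence were miR-124-3p and miR-124-5p, so seed partners of miR-124 could not be sought. Capitals mark the seed, bases 2 to 8. miR-128-3p, miR-132-3p and miR-9-3p are the members measured on both arrays, and miR-212-3p is shown because it was the one other array miRNA, among those with a sequence, that shared a seed with a member.
miR-128-3p: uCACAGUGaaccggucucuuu
miR-132-3p: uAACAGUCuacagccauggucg
miR-212-3p: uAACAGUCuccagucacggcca
miR-9-3p: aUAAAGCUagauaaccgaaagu
miR-9-5p: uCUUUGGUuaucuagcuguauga

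miR-128-3p is encoded at chr1:128202404-128202424 (plus strand) within the span of R3hdm1 and at chr9:112118644-112118664 (minus strand) within that of Arpp21. miR-132-3p lies at chr11:75173723-75173744 (plus strand) and miR-212-3p at chr11:75173443-75173464 on the same strand. Aligned from their first base, these 2 miRNAs are identical at 17 of 22 positions. The 3 genes for miR-9 lie within the spans of long non-coding RNA genes, Gm3764, C130071C03Rik and Mir9-3hg. The hairpins below are examples whose arms gave different detection calls, as the arms of miR-124, miR-128 and miR-132 also did. In Mir9-1 (chr3:88215598-88215686, plus strand) the first capital block is miR-9-5p and the second miR-9-3p, and in Mir129-2 (chr2:94241364-94241453, minus strand) the blocks are miR-129-5p and miR-129-2-3p.
Mir9-1: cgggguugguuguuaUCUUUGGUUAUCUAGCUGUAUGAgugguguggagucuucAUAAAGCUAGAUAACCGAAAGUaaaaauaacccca
Mir129-2: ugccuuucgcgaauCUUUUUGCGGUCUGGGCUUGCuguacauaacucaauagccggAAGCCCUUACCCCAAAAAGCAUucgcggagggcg

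miR-124-3p was detected on the MSC+LLC array and not on the LLC array. Its brighter probe, A_54_P4366, read 113.4 ± 6.10 intensity units (SD over 14 spots, lowest 97.8, median 114, highest 120.3) on the MSC+LLC array. The same probe read 9.12 ± 4.34 (SD over 15 spots, lowest 0.503, median 8.19, highest 14.6) on the LLC array. On the MSC+LLC array all 14 spots were well above background, and none of the 15 on the LLC array, and the ranges did not overlap. The spots lay spread over rows 65 to 377 of the 384 rows of each array. The 7 kinds of negative control spots had mean signals of 1.07 to 4.47 on the LLC array, so the LLC value of this probe lay above all of these means but under the lowest detected probe.

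Against the lowest detected probe of the LLC array, miR-124-3p was at least 62.4-fold higher in the MSC+LLC group after scaling and at least 5.42-fold higher without scaling. An equal level after scaling would have given 1307 units on the LLC array. The direction therefore did not rest on the scaling. Among 240 miRNAs that both arrays measured, 226 were dimmer for MSC+LLC before scaling and 14 brighter.

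The other probe of miR-124-3p, A_54_P2272, read 20.7 ± 4.42 (SD over 14 spots, lowest 15.2, median 19.3, highest 30.9) on the MSC+LLC array and -1.81 ± 4.74 (SD over 15 spots, highest 6.36) on the LLC array. Its spots did not overlap between the arrays either, but for MSC+LLC 7 of 14 were well above background, just short of the share required, so the bound rests on 1 probe, and miR-124-3p is detected on neither array if all probes of a miRNA are required. One spot of this probe on the MSC+LLC array read 94683 units, the brightest of all miRNA spots there. It had been marked as non-uniform by the scanner software and was left out.

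The opposite arm, miR-124-5p, stayed at background on both arrays. Its probes averaged -1.70 and -3.46 units on the LLC array against -3.36 and -0.751 on the MSC+LLC array, with 0 spots well above background. The RefSeq table names 3 genes for miR-124, Mir124a-1, Mir124a-2 and Mir124a-3, and which of them the 3p signal came from cannot be read from a mature miRNA.

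**Figure D1:**
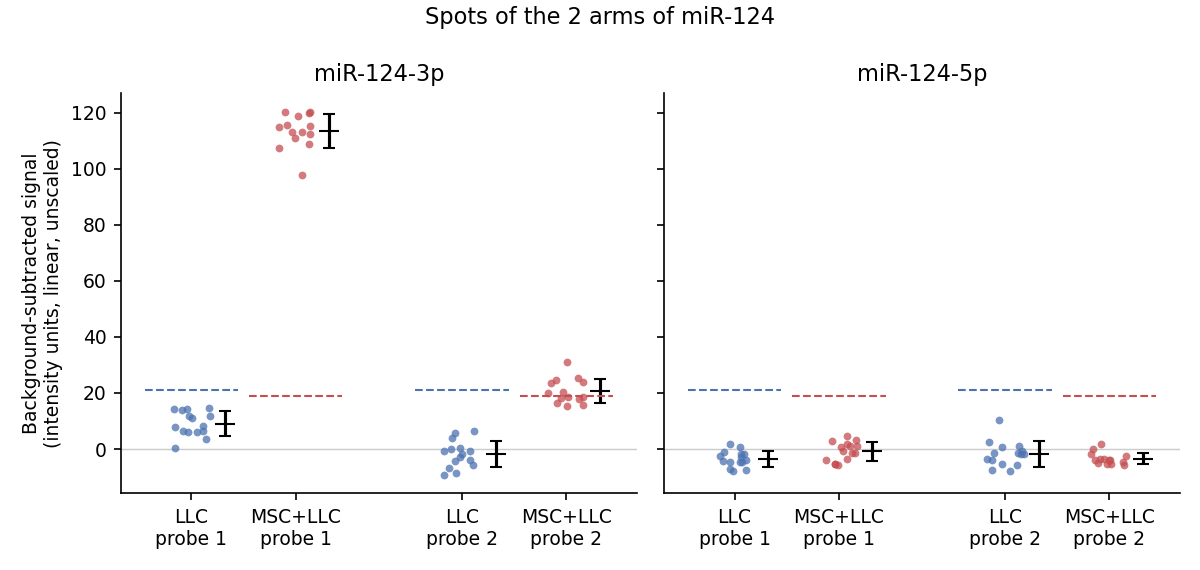
Signal of every kept spot of the probes of miR-124-3p (left) and miR-124-5p (right) on the LLC array (blue) and the MSC+LLC array (red), in unscaled intensity units on a linear axis; bars are the mean and SD over spots and dashed lines the lowest detected probe of that array (20.9 and 18.8). Probe 1 of miR-124-3p sits near 113.4 on the MSC+LLC array and near 9.12 on the LLC array, while both probes of miR-124-5p scatter around 0.

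miR-128-3p was detected on both arrays by both probes, with all 15 spots of each well above background. The first probe read 1707 ± 133 units (SD over 15 spots, lowest 1401, median 1723, highest 1924) on the LLC array against 114.2 ± 10.3 (SD over 15 spots, lowest 97.6, median 115.5, highest 133.8) on the MSC+LLC array. The second read 4200 ± 285 (SD over 15 spots) and 297.5 ± 14.2 (SD over 15 spots). Both probes were thus far dimmer on the MSC+LLC array, by 14.9-fold and 14.1-fold without scaling, and their spots did not overlap. Before scaling 226 of the 240 measured miRNAs were dimmer there, so no trait is read from raw ranges, here or for the miRNAs below. After scaling, the log2 ratio (MSC+LLC over LLC) of miR-128-3p was -0.33 with a spot-to-spot SD of 0.15, and the probes gave -0.38 and -0.29. This lay between the lower quartile (-0.45) and the median (0.15) of the 240 measured miRNAs.

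miR-132-3p was measured on both arrays by 1 of its probes. This probe read 294.9 ± 20.1 units (SD over 14 spots, lowest 257.9, median 299.1, highest 319.7) on the LLC array against 33.1 ± 5.33 (SD over 14 spots, lowest 23.9, median 35.2, highest 40.9) on the MSC+LLC array. The scaled log2 ratio was 0.37 with a spot-to-spot SD of 0.25, and it was -3.16 without scaling. The other probe read 123.8 ± 9.33 (SD over 15 spots) on the LLC array against 16.5 ± 4.25 (SD, 15 spots) on the MSC+LLC array, where 3 of its 15 spots passed as well above background. If all probes of a miRNA are required, miR-132-3p is detected on the LLC array only.

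miR-9-3p was detected on both arrays by both probes. They read 237.3 ± 20.8 and 147.5 ± 11.7 units on the LLC array against 33.2 ± 6.81 and 21.9 ± 2.5 on the MSC+LLC array (SD over 15 spots each). The brighter probe ranged from 198.3 to 271.2 on the LLC array but from 24.5 to 47.8 on the MSC+LLC array, without overlap before scaling. The scaled log2 ratio of miR-9-3p was 0.73 with a spot-to-spot SD of 0.27 (probes 0.69 and 0.77) and -2.79 without scaling. The opposite arm, miR-9-5p, which is the better known product of these genes, was detected on neither array. Its probes averaged -1.38 and -2.03 units on the LLC array against 1.38 and -1.59 on the MSC+LLC array, with 0 spots well above background.

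The position of a member on the LLC array decided how low a ratio could be measured. The limit used is the lowest detected probe of the MSC+LLC array, and a probe above it is not always detected. With its LLC signal, miR-128-3p would have stayed above this limit down to log2 ratios of -2.98 and -4.28 for its probes. The detected probe of miR-132-3p would have fallen under the limit below -0.45, and the probes of miR-9-3p below -0.13 and 0.55. The dimmer probe of miR-9-3p could therefore be measured on both arrays only at a raised ratio.

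miR-138-5p lay just under the detection rule on the LLC array. Its brighter probe read 22.2 ± 3.97 units there (SD over 15 spots, lowest 14.2, median 21.9, highest 29.9), with 7 of 15 spots well above background. For MSC+LLC it read 7.05 ± 4.67 (SD over 15 spots, lowest -0.0789, median 6.97, highest 19.9), with 1 of 15. Its other probe gave 16.0 and 4.32 units, and both probes were dimmer on the MSC+LLC array. An equal scaled level would have read 1.93 units there for the brighter probe, far under the lowest detected probe, so a ratio could not be given. The scanner software's own flag called miR-138-5p detected on the LLC array. miR-129-5p was at background, with probe means of 3.83 and -0.792 units on the LLC array against 2.0 and -0.715 on the MSC+LLC array.

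**Figure D2:**
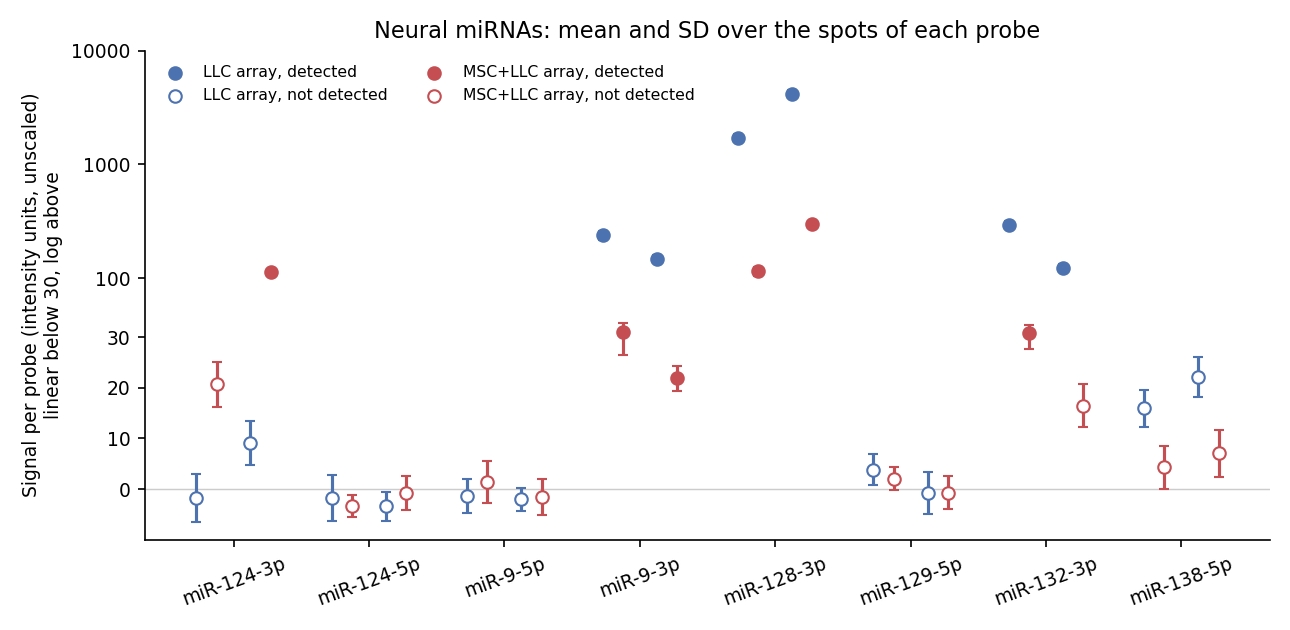
Mean and SD over spots for both probes of each of the 8 neural miRNAs on the LLC array (blue) and the MSC+LLC array (red), in unscaled intensity units on an axis that is linear below 30 and logarithmic above; filled circles are detected and open circles not detected. Of the detected miRNAs, miR-124-3p is the one that is higher on the MSC+LLC array, and miR-9-3p, miR-128-3p and miR-132-3p are detected on both arrays.

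Counted together, 3 of the 8 members were detected on the LLC array, where 26.7% of all miRNAs were, and 4 on the MSC+LLC array, where 13.7% were. One member, miR-124-3p, was detected on the MSC+LLC array only, as were 0.957% of all miRNAs; it was chosen for that, and nothing is read from this share. No member was detected on the LLC array only (13.9% of all miRNAs), 3 were on both (12.8%) and 4 on neither (72.4%). With bounds included, 1 member was at least 2-fold higher in the MSC+LLC group (4.41% of all miRNAs) and 0 were at least 2-fold lower (1.49%). The 1 is again miR-124-3p, which was chosen for its direction, so nothing is read from it. Of the 3 members measured on both arrays, 0 reached 2-fold in either direction, where 27.1% of the 240 measured miRNAs were higher and 11.2% lower. Their median log2 ratio was 0.37, with a median of 0.15 over all 240.

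**Figure D3:**
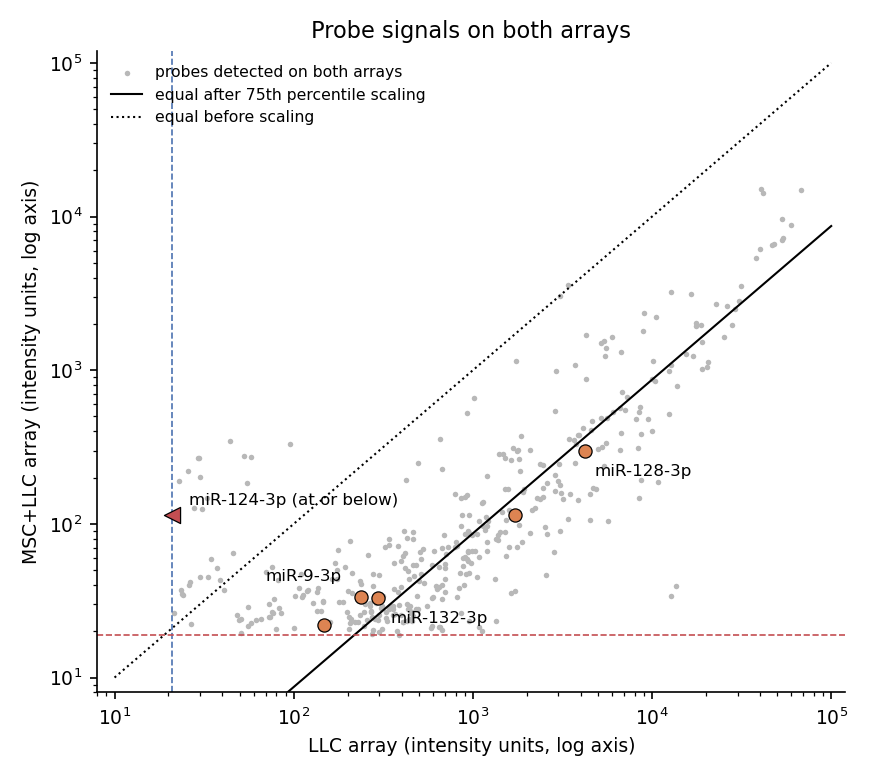
Signal of each probe detected on both arrays (gray), LLC against MSC+LLC in intensity units on log axes, with the measured neural miRNAs in orange and miR-124-3p as a red triangle placed at the lowest detected LLC signal (its LLC value is at or below that). The solid line marks equal levels after 75th percentile scaling, the dotted line equal raw signals and the dashed lines the lowest detected probe of each array; miR-128-3p, miR-132-3p and miR-9-3p lie near the solid line and miR-124-3p lies above the dotted line.

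Of 7 other arms of the same precursors, miR-129-2-3p was detected on both arrays and the other 6 on neither, where 72.4% of all miRNAs were on neither, so the count is read as no trait of these arms. One probe of miR-129-2-3p read 73.5 ± 5.79 units (SD over 15 spots, lowest 62.4, median 73.6, highest 81.6) on the LLC array against 24.7 ± 6.38 (SD over 15 spots, lowest 12.4, median 26.6, highest 34.6) on the MSC+LLC array. The raw ranges did not overlap, and the scaled log2 ratio was 1.95 (spot-to-spot SD 0.39) and -1.58 without scaling. At this LLC signal a ratio under 1.56 could not have been measured. The other probe of miR-129-2-3p was not well above background on either array.

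Of 17 other brain-enriched miRNAs listed, 15 were found on the array by name, and miR-9b-5p and miR-124b-3p were not. Of the 15, the LLC array detected 7 (26.7% of all miRNAs) and the MSC+LLC array 3 (13.7% of all miRNAs), so the count fell along with that over the whole array. miR-212-3p, the seed partner of miR-132-3p, read 158.9 ± 28.0 units on the LLC array against 23.1 ± 7.34 on the MSC+LLC array by its brighter probe (SD over 15 spots each). Its scaled log2 ratio was 0.74, with a spot-to-spot SD of 0.52 and a lowest measurable ratio of 0.45. The difference between miR-212-3p and miR-132-3p was thus smaller than the spot-to-spot SD of miR-212-3p.

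miR-219a-5p, an oligodendrocyte miRNA, read 433 ± 41.7 units on the LLC array against 27.8 ± 5.11 on the MSC+LLC array by its brighter probe (SD over 14 spots each), a scaled log2 ratio of -0.43 with a spot-to-spot SD of 0.30. Another 5 miRNAs were detected on the LLC array only. The brighter probe of each read 171.7 units for miR-7a-5p, 61.3 for miR-218-5p, 53.4 for miR-330-3p, 51.1 for miR-338-3p and 23.2 for miR-383-5p on the LLC array, and these probes read between 0.818 and 7.26 on the MSC+LLC array. At equal scaled levels these probes would have read 2.01 to 14.9 units on the MSC+LLC array, under its lowest detected probe, so no direction could be given for them.

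miR-346-5p was the only listed miRNA besides miR-124-3p that was detected on the MSC+LLC array and not on the LLC array. Its 4 probes read 16.0 to 18.5 units on the LLC array against 16.2 to 19.8 on the MSC+LLC array, and 1 probe passed the detection rule on the MSC+LLC array (5 of 8 spots). The raw signals overlapped, so its scaled bound of at least 10.9-fold rested on the scaling, and without scaling its detected probe lay under the lowest detected probe of the LLC array. The scanner software's own flag called miR-346-5p detected on both arrays. miR-375-3p, a neuroendocrine miRNA, was detected on both arrays with a scaled log2 ratio of 1.84 (spot-to-spot SD 0.33), a lowest measurable ratio of 1.36, and -1.69 without scaling.

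The miRNAs most like miR-124-3p were sought among the 18 detected on the MSC+LLC array only, by the smallest difference in scaled log2 signal of the brightest probe on that array. A probe's brightness also depends on its sequence, so this is a likeness in signal and not in amount. The closest were miR-669c-3p (a log2 difference of -0.69 from miR-124-3p), miR-669h-3p (-1.24), miR-466m-3p (-1.27), miR-467d-3p (-1.53) and miR-467b-3p (-1.82). These 5 belong to the rodent repeat families miR-466, miR-467 and miR-669, whose members are near-identical in sequence and may share signal. Their bounds after scaling ran from at least 14.7-fold to at least 26.1-fold higher, and none of these 5 is in the neural lists. Being detected on the MSC+LLC array only was the condition for the search, so nothing is read from their direction. The scaling raised these bounds by the same factor as that of miR-124-3p, which was 62.4-fold with scaling and 5.42-fold without. Unscaled, their brightest probes read 32.1 to 70.2 units on the MSC+LLC array, against 20.9 for the lowest detected LLC probe.

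The scaling set the sign for part of the members. The log2 bound of miR-124-3p, which was chosen for its direction, was 5.96 with the 75th percentile over probes that both arrays detected. It was 4.75 with that of all probes, 3.08 with the spike-in controls and 2.44 without scaling. The ratio of miR-128-3p was below 0 in all of these, from -0.33 to -3.86. The ratios of miR-9-3p and miR-132-3p, 0.73 and 0.37 with the first, became -0.48 and -0.84 with all probes. Of the 3, miR-128-3p had the lowest ratio, miR-132-3p the next and miR-9-3p the highest. Dividing each array by 1 value shifts all log2 ratios alike, so these scalings could not change this order. Quantile normalization could have, and gave -0.40 for miR-128-3p, 0.019 for miR-132-3p and 0.20 for miR-9-3p. The ranges of 1 SD around miR-132-3p and miR-9-3p overlapped in the first scaling, so their order is not clear of the spot-to-spot spread. The lowest measurable ratios of the 3 rose in the same order. They were -4.28 and -2.98 for miR-128-3p, -0.45 for miR-132-3p, and -0.13 and 0.55 for miR-9-3p. Whether the detection limit set the order was not tested.

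**Figure D4:**
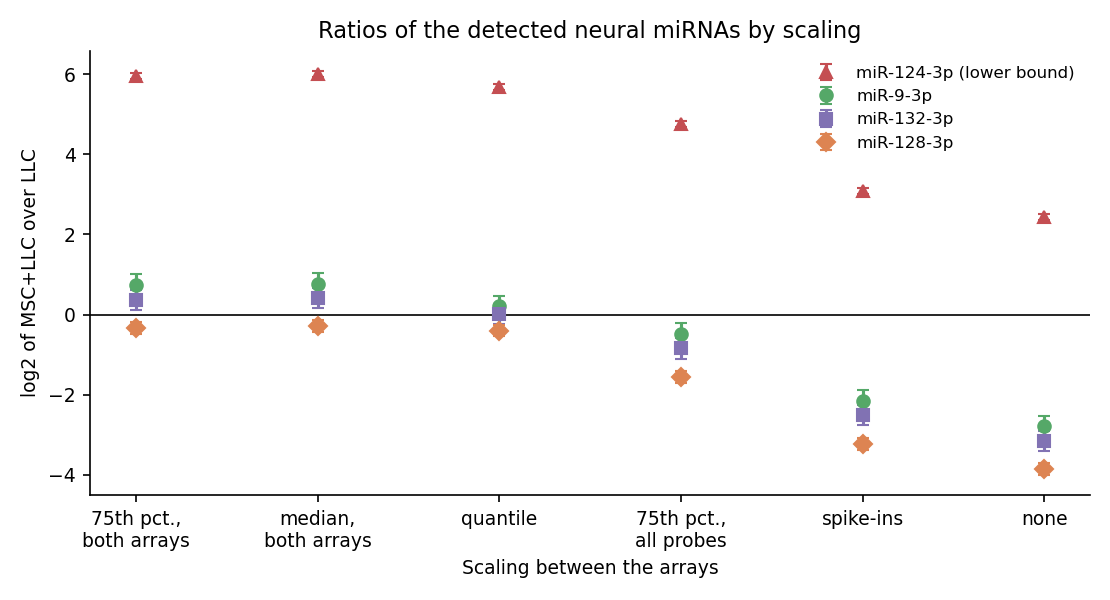
Log2 of MSC+LLC over LLC for the 4 detected neural miRNAs under 6 ways of scaling the arrays, with the spot-to-spot SD as error bars; triangles for miR-124-3p are lower bounds. miR-124-3p stays above 0 (5.96 in the first, 2.44 without scaling), miR-128-3p stays below 0, and miR-9-3p and miR-132-3p change sign.

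In the values deposited by the authors, miR-124-3p stood at -10.34 on the LLC array against 1.35 on the MSC+LLC array. The first is the value given to every undetected miRNA of that array, a summed signal of 0.1, so the difference of 11.69 is set by this replacement. miR-124-5p, miR-9-5p and miR-129-5p, undetected on both arrays, differed by 3.54 from the replacement and the constants of the arrays alone. miR-138-5p was detected on the LLC array in that table (-3.67) and undetected on the MSC+LLC array (-6.80). The deposited differences of the measured members were -0.63 for miR-128-3p, 0.13 for miR-132-3p and 0.41 for miR-9-3p.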

How the data were processed

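Exosomal RNA (100 ng) of 1 LLC and 1 MSC+LLC sample was hybridized to Agilent mouse miRNA arrays (design build mm9); groups came from the sample titles. The deposited scanner files hold spot intensity, per the file headers background-subtracted and detrended in Feature Extraction 11.5.1.1 (10.7 in the submitters' processing notes), with flags. The deposited table holds log2 values that the authors made in GeneSpring, which equal the log2 summed intensity minus a constant per array. Outlier spots were left out (3.04% and 2.95%), spots averaged per probe, arrays divided by the 75th percentile of probes detected on both, and log2 ratios averaged over the probes of a miRNA. A miRNA detected on 1 array got a bound against the other array's lowest detected probe or its own signal, whichever was higher. No test was possible. Functions were tested on simulated data. Named miRNAs were the members, the fixed lists, seed partners and the 5 most like miR-124-3p. Members and lists were chosen with earlier results of these data known. Python 3.11.15, numpy 2.4.6, pandas 2.3.3, and R 4.3.3 with limma 3.58.1 were used. Alternatives covered scaling, detection, outlier spots, probe averaging, normexp and the deposited values.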

Additional observations from a re-analysis of the deposited data

Results flagged for a closer look

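One spot of the dimmer probe of miR-124-3p on the MSC+LLC array, which entered no value above, read 94683 intensity units, while the 14 kept spots of this probe ran from 15.2 to 30.9. It was the brightest of the 56430 miRNA spots on that array and 1 of 9 that the scanner software marked as non-uniform. Its cause was not tested.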

How the results depend on the processing

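No paired analysis was possible because there is 1 array per group, and none could be left out. The log2 bound of miR-124-3p (5.96) stayed above 0 in all 13 alternatives. This miRNA was chosen for that direction and a bound below 0 would not have been kept, so this is a description. The bound was 5.68 after quantile normalization, 4.75 with the 75th percentile over all probes, 3.08 with the spike-ins and 2.44 without scaling. It was 4.17 with normexp (offset 50), 5.88 with the median of spots and 5.74 when every spot had to be well above background. It was 7.93 with the summed signal and 7.56 in the deposited values. These were set against the lowest detected LLC value and not against the value given to undetected miRNAs. It was 8.79 with outlier spots kept, which brings in the spot of 94683 units. With the software's detection flag it was 8.77, a mean over both probes, because the dimmer probe then counted as detected. The brighter probe was set there against its own LLC signal of 9.12 units. The dimmer probe was set against the lowest LLC probe so detected, at 0.149 units. The median ratio of the 3 measured members (0.37) became -0.84 with all probes, 0.019 after quantile normalization, -2.52 with the spike-ins, -3.16 without scaling and 1.32 with normexp, and moved by less than the spot-to-spot SD in the other 8. Members at least 2-fold higher (1) were 3 with normexp and 2 at a threshold of 1.5-fold. Members lower (0) were 1 with all probes and 3 with the spike-ins and without scaling. Without scaling, 226 of the 240 measured miRNAs were dimmer on the MSC+LLC array. The shares over all miRNAs were not computed for these settings, so nothing particular to the members is read from these counts. Requiring all probes of a miRNA gave 2 members detected on the MSC+LLC array (4), with miR-124-3p then detected on neither array and miR-132-3p on the LLC array only, and 5 and 0 other brain-enriched miRNAs and arms detected on the LLC and MSC+LLC arrays (8 and 4). Requiring every spot gave 1 on the MSC+LLC array. The low signal over background of the MSC+LLC array leaves falls of dim miRNAs unmeasured.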
